A study of Mus musculus with 48 samples.

Results

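The ATP synthase of the inner mitochondrial membrane is the enzyme that oligomycin A blocks, and 10 genes of it are described here: 9 that encode nuclear subunits (Atp5a1, Atp5b, Atp5c1, Atp5d, Atp5e, Atp5g1, Atp5g2, Atp5g3 and Atp5o) and Atpif1, which encodes the inhibitory factor. They were chosen by symbol, with no measured value as a criterion, from 55335 gene rows in each of 4 expression tables. Earlier results of these data were known when they were chosen. All 10 passed the filter on low values in every comparison. RNA was sequenced from MLO-Y4 cells, a mouse osteocyte-like line, and from bone of C57BL/6J mice, all labelled wild type, and 27 libraries in 9 groups of 3 were used. In the first table, MLO-Y4 cells received 50 µM oligomycin A for 1 h or the same volume of DMSO (vehicle), and untreated MLO-Y4 cells received for 2 h the supernatant of oligomycin A cells or that of vehicle cells. In the second, MLO-Y4 cells were given 2 µM ADP for 2 h or no ADP. The third holds bone fragments of 1-month-old mice cultured for 48 h in medium moved from other bone fragments (medium transfer) or labelled as control, and the fourth untreated cortical bone of 18-month-old mice. The vehicle samples carry a treatment label that names the drug too, at the concentration of its stock, and were taken as vehicle from title and protocol. For the transfer the protocol names culture medium of young and of old fragments, and the sample labels do not say which medium each library received. MLO-Y4 is 1 line. Nothing in the labels ties a replicate to its own culture or animal, and each p-value therefore refers to the spread of these libraries, part of which may be technical.

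ATP synthase is a rotary machine. Its membrane part, Fo, contains a ring of c subunits that turns as protons pass, and its soluble head, F1, makes ATP from ADP and phosphate as the central stalk turns inside it. Oligomycin binds the c ring and stops the proton flow, so both ATP synthesis and the return of protons into the matrix stop. Osteocytes sit in mineralised bone matrix, connected by long processes, and the study asks how mitochondrial damage under stress or in ageing affects their network.

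Values are FPKM, fragments per kilobase of gene, scaled to the fragments of the library. In the first table the deposited length of each of the 10 genes was that of all its annotated exons together. The values of the other tables did not allow this check for the 10 genes, and the same lengths were assumed there. Atp5g1 (4912 bases) is thus divided by far more than its shortest coding transcript (596 bases). Levels of different genes are given on that deposited scale unless another is named. By estimate the first table rests on 15.0 to 20.4 M fragments per library, with 21.29 to 25.38 M in the second. The estimate was 28.88 to 33.7 M in old bone and 1.61 to 6.4 M in young bone, and it is rough in both bone tables. Osteocyte markers were incomplete in MLO-Y4 cells: Spp1 was high, and Sost was listed at 0 in all 18 libraries. In old cortical bone 7 erythroid markers together had 356631 to 379149 FPKM and 8 neutrophil markers 101474 to 106325 FPKM, against 2137 to 2910 FPKM for 10 osteocyte and osteoblast markers; the protocol says that this bone was harvested with nonosseous tissue including marrow. In vehicle replicate 2, 26.3% of all FPKM came from the genes AY036118, Gm23935 and CT010467.1, against 0.195% in oligomycin A replicate 1. Fewer cells of a type and less RNA per cell cannot be told apart in these bulk samples.

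Promoter sequences are shown for the gene that passed the test below, Atp5d, and for the 3 genes of the c subunit, the oligomycin target, whose rank differed between cell line and bone. They are 300 bases each, from 250 before to 50 after the RefSeq start, on build GRCm38.p6: chr10:80142065-80142364 (plus strand) for Atp5d, chr11:96075582-96075881 (minus strand) for Atp5g1, chr15:102670998-102671297 (minus strand) for Atp5g2 and chr2:73911277-73911576 (minus strand) for Atp5g3. Capitals mark matches to any of 5 short motifs known from promoters of mitochondrial genes.
Atp5d: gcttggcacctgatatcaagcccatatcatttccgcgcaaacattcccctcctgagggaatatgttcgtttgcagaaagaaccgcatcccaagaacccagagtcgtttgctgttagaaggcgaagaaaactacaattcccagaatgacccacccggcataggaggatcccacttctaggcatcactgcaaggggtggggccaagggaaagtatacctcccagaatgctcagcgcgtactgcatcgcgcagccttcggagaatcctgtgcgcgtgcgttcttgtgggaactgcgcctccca
Atp5g1: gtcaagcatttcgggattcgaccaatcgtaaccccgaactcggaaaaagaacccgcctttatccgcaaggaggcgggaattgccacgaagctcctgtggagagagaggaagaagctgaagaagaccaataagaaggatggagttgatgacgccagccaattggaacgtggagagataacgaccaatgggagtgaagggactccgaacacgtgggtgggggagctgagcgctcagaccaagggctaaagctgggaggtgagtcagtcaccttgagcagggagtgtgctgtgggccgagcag
Atp5g2: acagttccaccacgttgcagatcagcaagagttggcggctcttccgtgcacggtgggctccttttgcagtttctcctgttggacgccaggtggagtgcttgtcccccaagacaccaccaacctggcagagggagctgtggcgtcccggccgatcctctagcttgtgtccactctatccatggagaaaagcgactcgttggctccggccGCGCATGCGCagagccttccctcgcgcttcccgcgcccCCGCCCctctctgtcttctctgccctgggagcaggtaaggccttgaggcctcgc
Atp5g3: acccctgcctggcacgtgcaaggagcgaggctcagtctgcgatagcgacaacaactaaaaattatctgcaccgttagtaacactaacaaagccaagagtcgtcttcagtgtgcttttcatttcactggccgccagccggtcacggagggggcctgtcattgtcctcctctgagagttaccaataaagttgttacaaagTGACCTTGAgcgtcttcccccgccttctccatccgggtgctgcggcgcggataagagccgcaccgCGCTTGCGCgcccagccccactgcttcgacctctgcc
Both strands were searched. A member counted as matched if any of its windows held the letters, while shares of all promoters are per window. Atp5c1 and Atp5d have 2 windows each, and the NRF1 letters are in 1 of those of Atp5c1. The Atpif1 window (chr4:132535365-132535664, minus strand) lies outside the gene interval given below. The letters GCGCANGCG, the core of NRF1 sites, were found in promoters of 5 of the 9 members with a RefSeq entry (Atp5c1, Atp5g2, Atp5g3, Atp5o and Atpif1), against 6.25% of 32851 mouse promoters of this length, which had a median GC content of 52.7%. The ERR letters TCAAGGTCA were found in 1 member, Atp5g3, against 0.423% of all promoters and lie there on the strand opposite to the one shown. GGGCGG, the SP1 core, was found in 4 (Atp5b, Atp5e, Atp5g2 and Atpif1), against 35.7% of all, CCGGAAG (ETS and GABPA) in Atp5e, against 8.86%, and AAGATGGC (YY1) in 0, against 2.75%. The run of 10 capitals in Atp5g2 holds 2 overlapping NRF1 matches, 1 on each strand. The windows of Atp5d and Atp5g1 held none of these letters. GC content was 54.0% for Atp5d, 55.3% for Atp5g1, 63.0% for Atp5g2 and 57.0% for Atp5g3. A match is a description of letters, and no binding was measured.

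The level of the 10 genes differed over a wide range. In vehicle cells Atp5b, the catalytic β subunit of the F1 head (chr10:128083273-128090391, plus strand, GRCm38), had the highest value at 248.8 ± 12.98 FPKM (SD, n = 3), and Atp5a1, the α subunit beside it (chromosome 18), followed at 112.9 ± 7.19 FPKM. Next came Atp5g2 at 59.3 ± 5.52 FPKM, Atp5c1, the γ subunit of the central stalk (chr2:10056016-10080510, minus strand), at 48.6 ± 4.52 FPKM, and Atp5o, the OSCP subunit that joins the head to the outer stalk (chr16:91925214-91931687, minus strand), at 45.8 ± 1.61 FPKM. The ranges over libraries of Atp5c1, Atp5o, Atp5g3 (41.9 ± 2.47 FPKM) and Atp5d (40.5 ± 0.884 FPKM) each overlapped the next. Atp5d encodes the δ subunit (chr10:80138632-80145818, plus strand) and Atp5e the ε subunit (chr2:174461072-174464105, minus strand), both of the central stalk, and Atp5e had 19.5 ± 0.682 FPKM. Atpif1 (chr4:132530555-132533659, minus strand), whose product blocks the enzyme from running backwards and consuming ATP, had 29.4 ± 0.0572 FPKM, and Atp5g1 was lowest at 9.33 ± 1.06 FPKM. Counted per base of the shortest annotated coding transcript in place of all exons, Atp5b stayed first at 550.2 FPKM, Atp5g2 was second at 225.3 FPKM, and Atp5g1 came to 76.9 FPKM, within the spread of Atp5e, Atp5c1 and Atpif1.

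**Figure D1:**
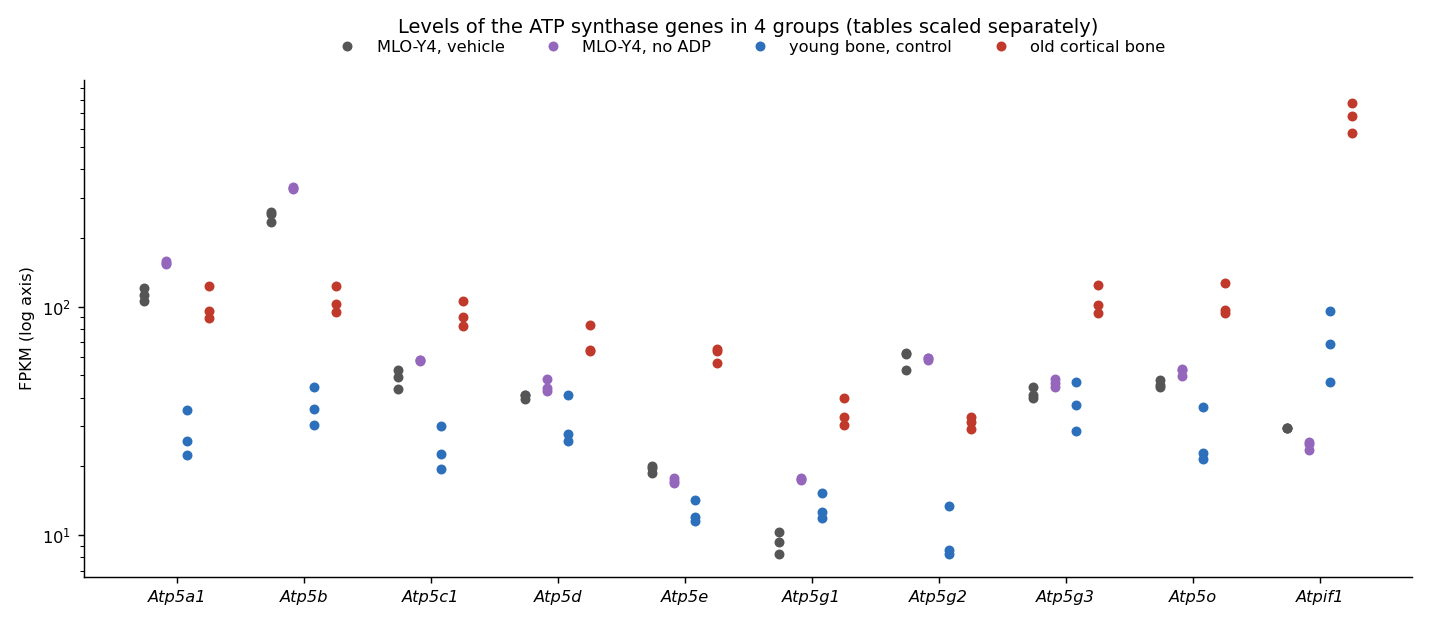
FPKM of the 10 genes on a log axis in vehicle MLO-Y4 cells, MLO-Y4 cells without ADP, control young bone and old cortical bone, 1 point per library; the tables were scaled separately. Atpif1 is the gene that stands out in old bone, at 577.1 to 780.2 FPKM against 23.6 to 29.5 FPKM in the MLO-Y4 groups shown.

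The order was different in bone. In old cortical bone Atpif1 was first at 684.4, 577.1 and 780.2 FPKM, and its lowest library was above the highest of every other gene. Atp5g3, Atp5b, Atp5o and Atp5a1 followed at means of 106.9, 106.7, 106.0 and 102.5 FPKM, and from Atp5g3 down to Atp5e each overlapped the next. Within a library the log2 ratio of Atpif1 to Atp5b does not depend on how libraries were scaled: it was 2.67 ± 0.379 in old bone, 0.479 ± 0.766 in young bone after medium transfer, 0.891 ± 0.255 in control young bone and between -3.74 and -3.01 as a mean in each of the 6 MLO-Y4 groups (SD, n = 3 each). Tables were not tested against each other. In mouse and zebrafish erythroid cells Atpif1 is known to support haem synthesis. The erythroid marker sum was 3838 to 20882 FPKM in young bone and at most 3.3 FPKM in the MLO-Y4 libraries, with Slc4a1 at 0 in every MLO-Y4 library; its part in the Atpif1 level was not tested.

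The c subunit is made from 3 genes. Their coding sequences are 408 bases long for Atp5g1 (chr11:96068852-96075670, minus strand), 438 for Atp5g2 (chr15:102662864-102672352, minus strand) and 423 for Atp5g3 (chr2:73908447-73911326, minus strand). The last 225 coding bases, which encode the mature subunit, were identical at 84.9% of positions between Atp5g1 and Atp5g2, 80% between Atp5g1 and Atp5g3 and 78.7% between Atp5g2 and Atp5g3. Before them, in the part that encodes the mitochondrial targeting peptide, identity position by position without gaps was 31.1%, 37.7% and 39.4% in the same order of pairs. In MLO-Y4 cells Atp5g2 made up the largest share of their summed FPKM. Its share was 53.9% ± 0.482 in oligomycin A cells and 53.6% ± 1.25 in vehicle cells, while Atp5g3 had 37.6% ± 0.640 and 37.9% ± 1.76, and Atp5g1 8.47% ± 0.198 and 8.43% ± 0.604, in the same 2 groups (SD, n = 3 each). Atp5g3 led in bone, with 63.0% ± 2.56 after medium transfer, 61.4% ± 2.97 in control young bone and 61.9% ± 2.14 in old bone, and the Atp5g2 share was 17.2%, 16.5% and 18.1% in these groups. No difference of a share between oligomycin A and vehicle cells passed an exact permutation test (two-sided p = 1, 0.8 and 0.9 for Atp5g1, Atp5g2 and Atp5g3, 3 against 3, where 0.1 is the smallest p possible).

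**Figure D2:**
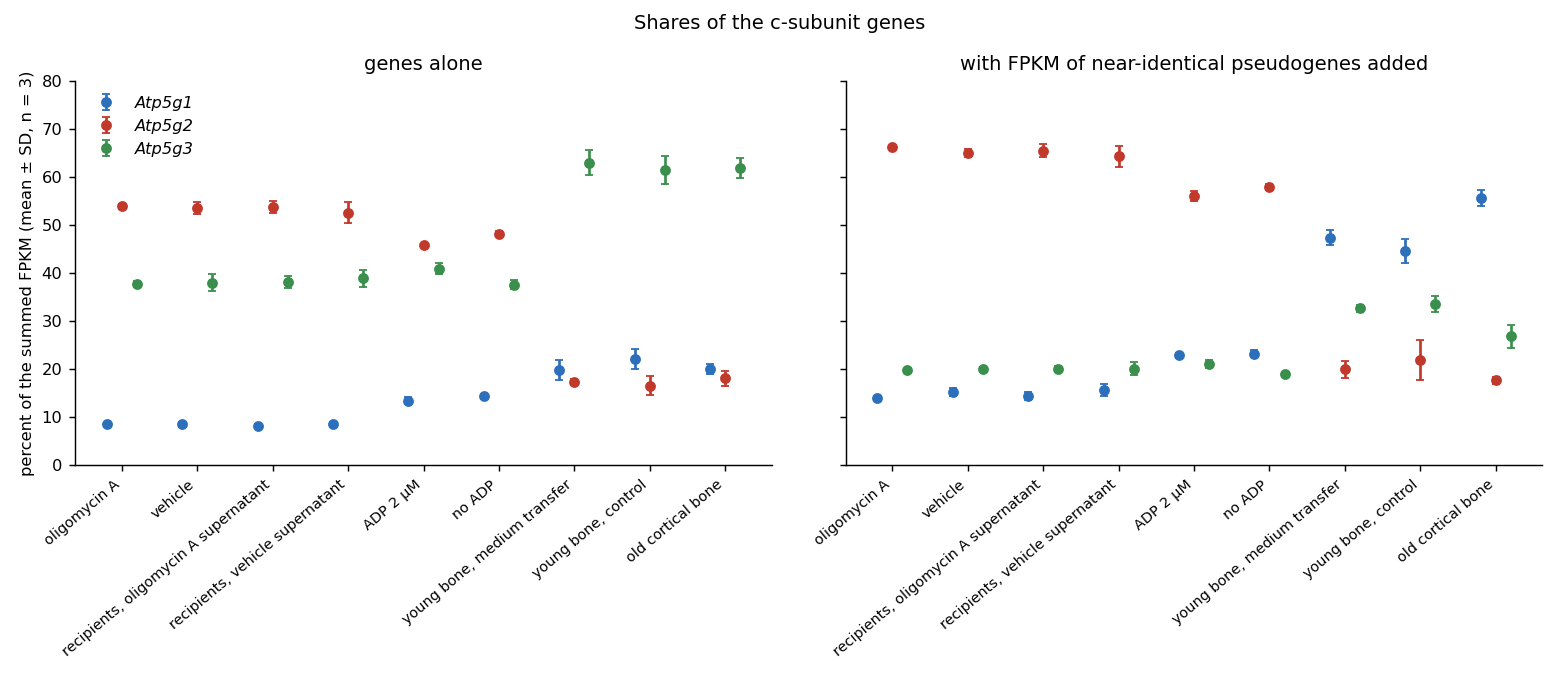
Share of the 3 c-subunit genes in their summed FPKM (mean and SD, n = 3 libraries) in the 9 groups, for the genes alone (left) and with the FPKM of pseudogenes that share 50-base stretches added to their parent gene (right). Atp5g2 leads in all 6 MLO-Y4 groups on both sides, and in bone the leader is Atp5g3 for the genes alone and Atp5g1 with pseudogenes. On the right each FPKM keeps the length of its own gene, and a fragment may be counted more than once.

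These shares are uncertain where reads cannot be placed. Every 50-base stretch of the shortest Atp5g2 coding transcript also occurs in each of the annotated pseudogenes Gm10175 and Gm10231, and 66.0% of those of Atp5g1 occur elsewhere, 61.2% in the pseudogene Gm10039; Atp5g3, Atp5d, Atp5e and Atp5a1 share none. Gm10175 had 30.7 ± 0.735 FPKM in oligomycin A cells and 34.9 ± 1.31 FPKM in vehicle cells, and Gm10231 had 37.6 ± 1.15 and 42.4 ± 1.12 FPKM in the same groups (SD, n = 3 each). Gm10039 had 186.8 ± 10.71 FPKM in old bone. Each of these values is divided by the length of its own gene, and whether a fragment was counted at more than 1 gene is not known. Sums with the parent gene therefore mix lengths and may hold the same fragments more than once. With these values added to the parent gene, Atp5g2 still led in oligomycin A cells at 66.3% and vehicle cells at 65.0%, and Atp5g1 became the largest in bone, at 47.4% after medium transfer, 44.6% in control young bone and 55.6% in old bone, against 32.6%, 33.6% and 26.8% for Atp5g3. Length matters too: per base of the shortest coding transcript, Atp5g1 made up 38.7% after medium transfer, 42.0% in control young bone and 38.9% in old bone, against 45.8%, 43.5% and 44.8% for Atp5g3, and Atp5g2 still led in the 6 MLO-Y4 groups. The rank of Atp5g1 and Atp5g3 in bone therefore depends on where these reads belong and on the length used. Of Atp5o, 35.5% of the stretches are shared, mostly with a second Atp5o entry that was listed at 0 in all groups.

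Oligomycin A cells were compared with vehicle cells to see what 1 h of blocked ATP synthase does to transcripts. All 10 genes had lower means in oligomycin A cells, and 1, Atp5d, fell past the threshold (limma, Benjamini-Hochberg adjusted p below 0.05 over all genes tested). This is 1 of 10 lower and 0 of 10 higher, against 1.63% lower and 3.71% higher among all 11902 genes tested. The median log2 fold change of the 10 was -0.21, against -0.0037 for all genes. All 10 log2 fold changes were negative as deposited, with scaling by the median of ratios and with quantile normalization. When libraries were rescaled to one FPKM total, all genes had a median of 0.12. Atp5a1, Atp5b and Atp5c1 then had positive values of 0.10, 0.051 and 0.082, the median of the 10 was -0.069 and 0 of the 10 was called. That scaling divided vehicle replicate 2 by the highest total, 352370 FPKM, against 265160 to 282134 FPKM in the other libraries of the first table. Of the total of vehicle replicate 2, 26.3% came from AY036118, Gm23935 and CT010467.1. The part of this library in the changes of sign was not tested.

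Among the central stalk genes, Atp5d had 33.6, 31.3 and 32.7 FPKM in oligomycin A cells, against 40.9, 39.5 and 41.1 FPKM in vehicle cells. Every oligomycin A library lay below every vehicle library, and the gap between the groups was wider than the spread inside either. On the log2(FPKM + 1) scale it fell by 0.31 ± 0.07 (SE; limma adjusted p = 0.0264). The call was lost when any 1 library other than vehicle replicate 2 was left out, in 5 of 6 such fits, and without a filter on low values. Without vehicle replicate 2 Atp5g2 was called as well. The adjusted p ranged between 0.0122 and 0.526 over 14 alternatives. Atp5e had 16.5, 14.1 and 17.1 FPKM in oligomycin A cells, against 20.1, 18.8 and 19.6 FPKM in vehicle cells, without overlap, and a log2 fold change of -0.28 ± 0.11 that did not pass (adjusted p = 0.174). Atp5c1 overlapped between the groups, with 42.5, 49.2 and 47.0 FPKM in oligomycin A cells and 52.7, 43.7 and 49.3 FPKM in vehicle cells.

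In the outer stalk and the head no gene passed. Atp5o had 36.6, 40.1 and 36.1 FPKM in oligomycin A cells, against 44.4, 45.4 and 47.6 FPKM in vehicle cells, and these ranges did not overlap. Its log2 fold change of -0.28 ± 0.08 missed the threshold (limma adjusted p = 0.0645), and it was called when libraries were scaled by the median of ratios or by quantiles. The catalytic gene Atp5b had 231.5, 233.6 and 229.9 FPKM in oligomycin A cells, against 253.1, 234.2 and 259.1 FPKM in vehicle cells. Its groups were separate only by the narrow gap to vehicle replicate 2, and its log2 fold change was -0.10 (95% interval -0.22 to 0.01). Atp5a1 overlapped, with 110.7, 111.7 and 103.7 FPKM in oligomycin A cells and 112.6, 105.8 and 120.2 FPKM in vehicle cells, at -0.05 (95% interval -0.19 to 0.08). Whether head genes and stalk genes differ from each other was not tested.

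The c-subunit genes lay close together. Atp5g1 had 7.82, 7.98 and 8.07 FPKM in oligomycin A cells, against 10.4, 8.26 and 9.35 FPKM in vehicle cells, Atp5g2 had 50.0, 49.8 and 52.1 FPKM against 62.4, 52.9 and 62.6 FPKM, and Atp5g3 had 35.9, 34.0 and 36.2 FPKM against 41.0, 39.95 and 44.7 FPKM, in the same order of groups. None of the 3 overlapped between the groups, and vehicle replicate 2 was the lowest vehicle library for each. Their log2 fold changes were -0.20, -0.22 and -0.24, with limma adjusted p of 0.219, 0.102 and 0.148. The pseudogenes Gm10175 and Gm10231 had -0.18 and -0.17, and Gm10039 had -0.37, with adjusted p of 0.160, 0.170 and 0.103. Atpif1 had 26.1, 26.4 and 25.6 FPKM in oligomycin A cells, against 29.5, 29.4 and 29.4 FPKM in vehicle cells, a log2 fold change of -0.17 ± 0.10 (adjusted p = 0.347). The log2 ratio of Atpif1 to Atp5b was -3.15 ± 0.0131 in oligomycin A cells and -3.08 ± 0.0738 in vehicle cells, without overlap; the exact two-sided permutation p was 0.1, the smallest possible, and 0.667 after adjustment over 20 tests of shares and ratios.

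**Figure D3:**
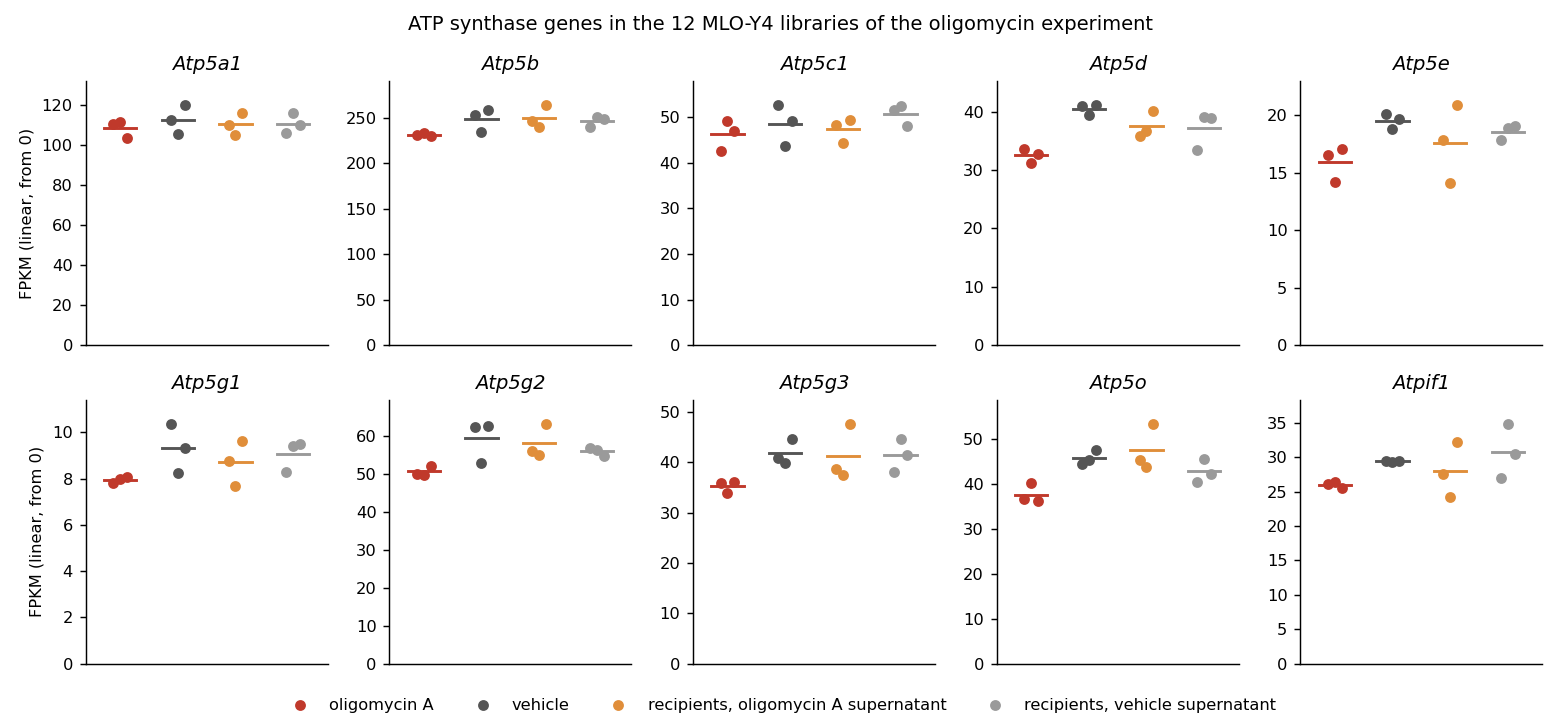
FPKM of each gene (linear axes from 0) in the 12 libraries of the oligomycin A experiment, 1 point per library and a line at the group mean. For 8 of the 10 genes the 3 oligomycin A points lie below the 3 vehicle points, and both recipient groups overlap for every gene.

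Over the 10 genes, 8 had non-overlapping groups with oligomycin A cells lower, all but Atp5a1 and Atp5c1, against 13.1% of all genes tested, and 6 had an unadjusted limma p below 0.05, against 22.2% of all genes. Transcript length moved with this difference, on the deposited scaling: of 903 genes whose shortest annotated coding transcript is under 1000 bases, 76.6% had a negative log2 fold change with a median of -0.10, and of 8970 longer genes 45.9% did, with a median of 0.02, a boundary that was chosen after the values were seen. The members split the same way, with a median of -0.24 for the 7 short ones and -0.07 for the 3 long ones, Atp5a1, Atp5b and Atp5c1. The part of transcript length in the members' values was not tested.

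Other genes of the enzyme and of its surroundings were examined as lists. All 10 other ATP synthase subunits had negative log2 fold changes in oligomycin A cells with the deposited scaling and with scaling by the median of ratios. With quantile normalization 8 did, and 6 with libraries rescaled to one total. Their median was -0.17 as deposited. Of the 10, 1 fell, against 1.63% of all genes: it was 2010107E04Rik (chr12:111961375-111966977, minus strand), which the annotation names Atp5mpl, a small membrane subunit. This gene had 16.2, 17.2 and 18.3 FPKM in oligomycin A cells, against 24.6, 22.7 and 25.2 FPKM in vehicle cells, a log2 fold change of -0.46 ± 0.10 (limma adjusted p = 0.0227). Its groups were well separated, and the call was lost in 4 of 6 fits without 1 library, without a filter on low values and with libraries rescaled to one total. Atp5h, the d subunit of the outer stalk, had a value of -0.22 (limma adjusted p = 0.0782). It was called lower with scaling by the median of ratios and with quantile normalization. The mitochondrially encoded mt-Atp6, the a subunit that forms the proton channel with the c ring, had 2639 ± 7.58 FPKM in oligomycin A cells and 2960 ± 192.4 FPKM in vehicle cells (SD, n = 3 each, limma adjusted p = 0.0968). It was called lower with scaling by the median of ratios. For mt-Atp8 the log2 fold change was -0.13. Of 59 nuclear electron transport chain genes 1 fell, a share near the 1.63% of all genes. It was Ndufb8 of complex I at -0.27 (limma adjusted p = 0.0405), whose call was lost in all 6 fits without 1 library. The median was -0.13, with 57 of 59 negative as deposited, 56 with scaling by the median of ratios, 57 with quantile normalization and 23 with one total. Scaling by the median of ratios called 4 of the 59 lower, where 405 of all 11902 genes were. Quantile normalization called 5 lower, where 522 of 11902 were. None of 7 assembly factors, 6 ADP, ATP and phosphate carriers or 15 subunits of the V-ATPase, the related proton pump of lysosomes, passed, with medians of -0.05, -0.03 and 0.01 as deposited and 0.092, 0.11 and 0.16 with one total.

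In MLO-Y4 cells that received the supernatant for 2 h, the ATP synthase genes did not separate. Against recipients of vehicle supernatant, 0 of 10 passed in recipients of oligomycin A supernatant (limma; 0 of 10 with an unadjusted p below 0.05, against 8.08% of all genes), where 0.277% of all genes were higher and 0.109% lower. Atp5d had 35.9, 36.7 and 40.1 FPKM in recipients of oligomycin A supernatant and 33.4, 39.1 and 39.0 FPKM in recipients of vehicle supernatant, which overlapped. The log2 fold changes of the 10 genes lay between -0.13 for Atpif1 and 0.14 for Atp5o, with a median of -0.01. For Atp5d the 95% interval ran from -0.13 to 0.17 and for Atp5b from -0.10 to 0.13.

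**Figure D4:**
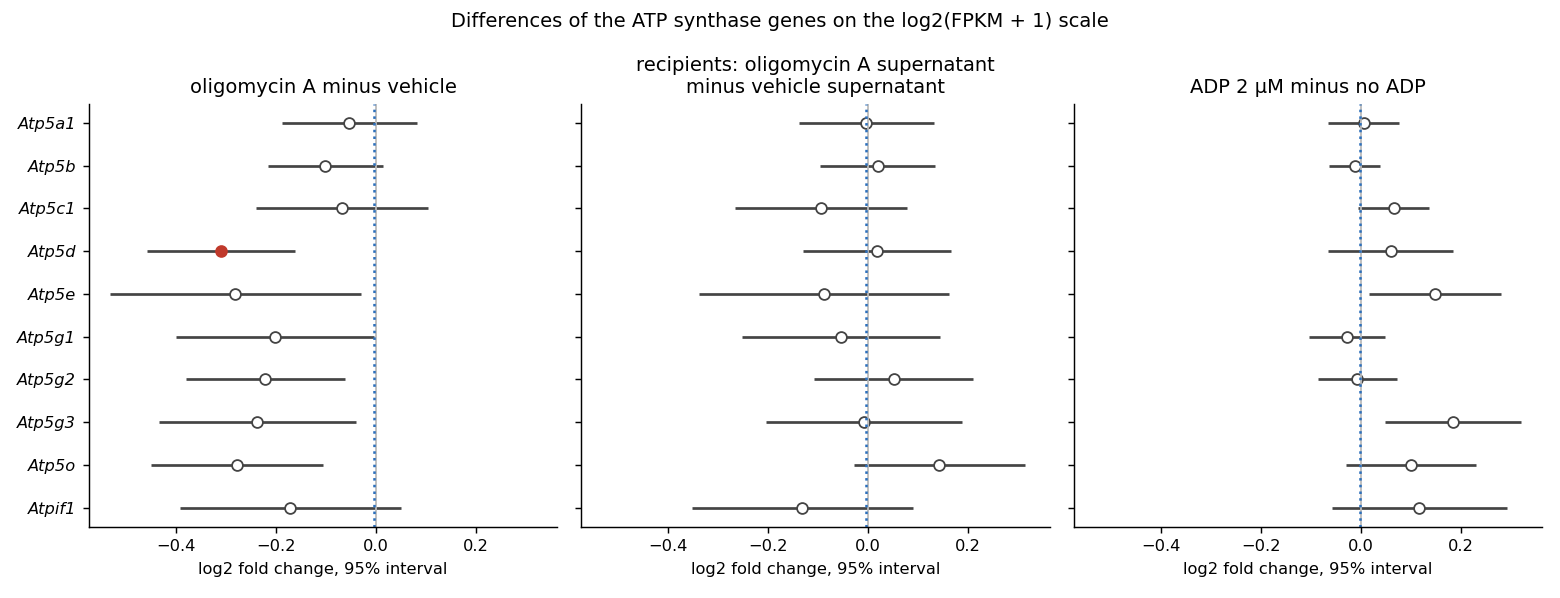
Log2 fold change of each gene with its 95% interval from limma for oligomycin A minus vehicle cells, for recipients of oligomycin A supernatant minus recipients of vehicle supernatant, and for 2 µM ADP minus no ADP; the dotted line is the median of all genes and the filled point passed the threshold. All 10 values are negative in the left panel with the deposited scaling (Atp5a1, Atp5b and Atp5c1 turn positive when libraries are rescaled to one total), and Atp5d at -0.31 is the one that passed.

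The difference between the recipient and the direct response was tested as an interaction in the same fit. None of the 10 passed, where 0.084% of all genes were higher and 0.361% lower, and 3 had an unadjusted p below 0.05, against 10.7% of all genes. Atp5o, with 45.2, 43.6 and 53.4 FPKM in recipients of oligomycin A supernatant and 40.4, 45.5 and 42.2 FPKM in recipients of vehicle supernatant, differed most, at 0.42 ± 0.11 on the log2 scale (limma adjusted p = 0.171). Atp5d followed at 0.33 ± 0.10 (adjusted p = 0.232) and Atp5g2 at 0.27 (adjusted p = 0.361). As deposited, 9 of 10 values were positive, with a median of 0.17 against -0.0049 for all genes, and with libraries rescaled to one total 6 of 10 were, with a median of 0.046 against -0.12 for all genes.

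Recipients of vehicle supernatant and vehicle cells were both without oligomycin A by title and protocol, and differed in the transfer of supernatant and in the time of exposure, 2 h against 1 h. Across all genes 9.49% were higher and 5.18% lower in recipients of vehicle supernatant, and 0 of the 10 ATP synthase genes passed (limma; 0 with an unadjusted p below 0.05, against 29.99% of all genes). Their median log2 fold change was -0.03, against 0.03 for all genes, and with libraries rescaled to one total it was 0.090, against 0.14. Atp5d, with the values of recipients of vehicle supernatant given above, was the 1 of 10 whose libraries all lay below those of vehicle cells, at -0.13 ± 0.07, where 12.6% of all genes did so. Tmem70, an assembly factor of ATP synthase that helps to build the c ring (chr1:16665207-16678275, plus strand), rose: it had 8.27, 10.1 and 10.2 FPKM in recipients of vehicle supernatant, against 3.84, 5.98 and 4.40 FPKM in vehicle cells, a log2 fold change of 0.89 ± 0.23 (limma adjusted p = 0.0280; lost in 4 of 6 fits without 1 library). It was the 1 of 7 assembly factors that passed. The porin Vdac3 of the outer membrane rose by 0.20 (adjusted p = 0.0256), and 3 of 15 V-ATPase subunits rose, Atp6v1c1 by 0.26, Atp6ap2 by 0.25 and Atp6v1d by 0.27 (adjusted p = 0.00926, 0.0253 and 0.0306). Without 1 library the call of Vdac3 was lost in 3 of 6 fits, those of Atp6ap2 and Atp6v1d in 4 of 6 each and that of Atp6v1c1 in 0. Atp6ap2 also lost it with quantile normalization and with scaling by the median of ratios. Over all 14 alternatives the call was lost in 8 each for Atp6ap2 and Atp6v1d. It was lost in 5 each for Tmem70 and Vdac3 and in 2 for Atp6v1c1. With libraries rescaled to one total, Tmem70 was the 1 of these 5 genes still called. This comparison shares the vehicle libraries with that of oligomycin A cells, and its recipients with the comparison of supernatants.

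With 2 µM ADP, a substrate of the enzyme inside mitochondria and outside the cell a ligand of purinergic receptors, 0 of the 10 genes passed against no ADP (limma; 2 with an unadjusted p below 0.05, Atp5g3 and Atp5e, against 5.84% of all genes), where 0.0517% of all 11604 genes were higher and 0.00862% lower. Atp5g3 had 48.9, 54.4 and 55.4 FPKM with ADP and 44.5, 48.3 and 46.3 FPKM without ADP, and its groups did not overlap, at 0.18 ± 0.06 (adjusted p = 0.842). Atp5e had 18.5, 18.7 and 20.99 FPKM with ADP and 16.9, 17.9 and 17.3 FPKM without ADP, at 0.15 ± 0.05 (adjusted p = 0.842). Atp5c1 was the third gene without overlap, where 5.33% of all genes lay wholly above. Atp5b of the head overlapped, with 326.3, 327.3 and 327.8 FPKM with ADP and 326.0, 329.9 and 334.1 FPKM without, and its log2 fold change had a 95% interval of -0.06 to 0.04.

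No c-subunit share passed the test between ADP and no ADP. Atp5g2 made up 46.2%, 45.4% and 45.6% with ADP and 48.4%, 47.5% and 48.5% without, 2.40 percentage points lower in the mean, and Atp5g3 made up 39.7%, 41.8% and 41.3% with ADP and 36.8%, 38.5% and 37.5% without, 3.31 points higher. The groups did not overlap for either gene, while those of Atp5g1 did, and the exact two-sided permutation p for Atp5g2 and for Atp5g3 was 0.1, the smallest possible with 3 against 3, and 0.667 after adjustment over the 20 tests. Among the other subunits, Atp5j, coupling factor 6 of the outer stalk, had 15.2, 14.6 and 14.2 FPKM with ADP and 17.8, 19.7 and 18.9 FPKM without, at -0.34 ± 0.04 (limma adjusted p = 0.191). Atp5j2, the f subunit of the membrane part, had 24.8, 23.4 and 25.8 FPKM with ADP and 31.2, 32.5 and 29.8 FPKM without, at -0.33 ± 0.05 (adjusted p = 0.296). Neither overlapped between the groups and neither passed over all genes, and the median of the 10 other subunits was 0.06.

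In young bone the 10 genes could not be told apart between medium transfer and control. Their log2 fold changes were all positive with the deposited scaling, between 0.40 for Atpif1 and 0.83 for Atp5a1, while 5 of 10 were negative after quantile normalization and 3 after scaling by the median of ratios. The deposited values had a median of 0.70, against 0.45 for all genes, and standard errors of 0.82 to 0.92. None of 10 passed (limma; 0 with an unadjusted p below 0.05, against 2.24% of all genes), where 0.0122% of all 16438 genes were higher and 0.0122% lower. Atp5b had 60.3, 181.8 and 24.0 FPKM after medium transfer and 35.6, 30.4 and 44.3 FPKM in control bone, and its 95% interval on the log2 scale ran from -0.97 to 2.59. Transfer replicate 2 was the highest library for every one of the 10 genes and transfer replicate 3 the lowest for 7 of them. Atp5e was the 1 gene without overlap, with 16.3, 28.5 and 15.6 FPKM after transfer and 11.98, 11.6 and 14.3 FPKM in control bone, where 3.49% of all genes lay wholly above.

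**Figure D5:**
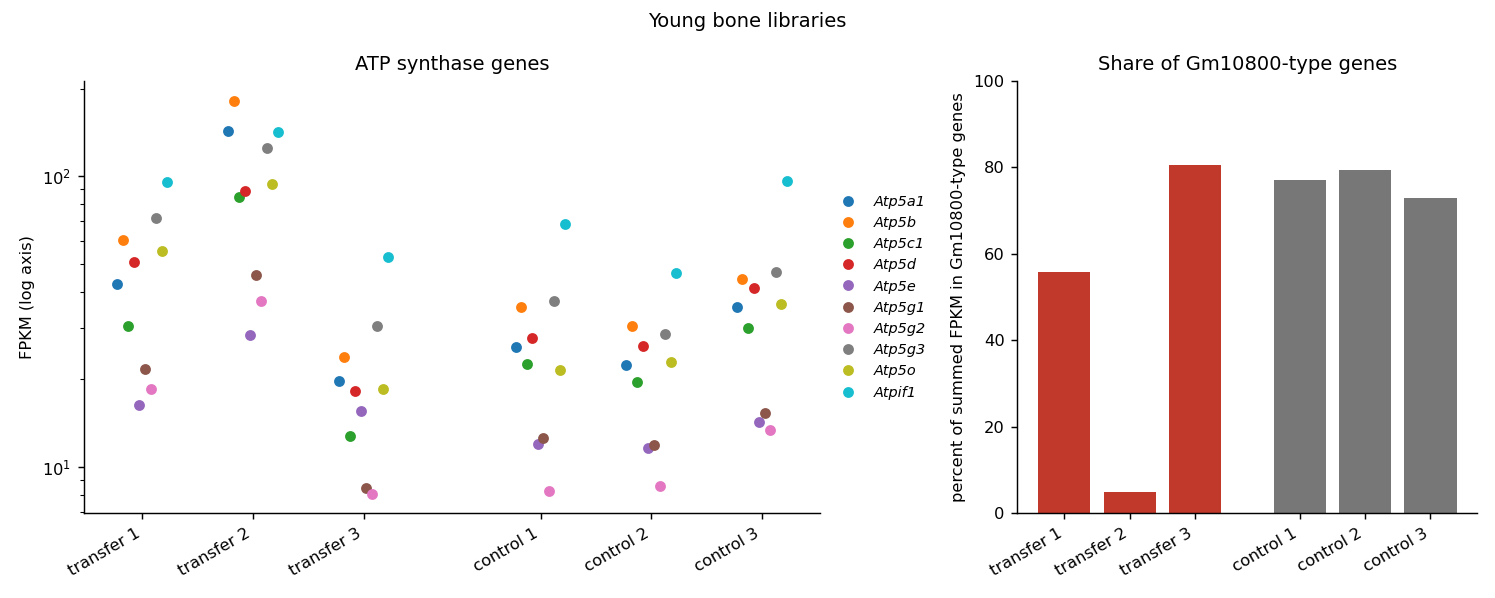
FPKM of the 10 genes (log axis) in each young bone library, and the share of each library's summed FPKM in Gm10800 and 5 similar predicted genes. Transfer replicate 2 has the highest ATP synthase values and 4.98% of its FPKM in these genes, against 55.9% to 80.5% in the other 5 libraries.

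The young bone libraries differed in another measure. Gm10800, Gm10801, Gm26870, Gm10717, Gm10718 and Gm10722 together took 55.9%, 4.98% and 80.5% of the summed FPKM after medium transfer and 77.0%, 79.5% and 73.0% in control bone. With those genes and AY036118, Gm23935 and CT010467.1 left out of the total, the 10 ATP synthase genes together made up 0.148%, 0.224% and 0.102% of the summed FPKM after transfer and 0.118%, 0.109% and 0.147% in control bone, and the groups overlapped. Without transfer replicate 2 the median log2 fold change of the 10 genes was 0.07. Osteoclasts are rich in mitochondria, and the summed FPKM of 6 osteoclast markers was 1229, 4942 and 797 after transfer and 691, 864 and 780 in control bone. The sum of osteocyte and osteoblast markers was 42758, 108096 and 18892 after transfer and 38993, 26237 and 42675 in control bone, that of 5 adipocyte markers 48.2, 11.3 and 96.6 after transfer and 4.44, 5.15 and 5.44 in control bone, and that of erythroid markers 10507, 20882 and 12075 after transfer and 8063, 3838 and 5259 in control bone. The sum of 7 B cell markers was 39.0, 119.2 and 48.8 after transfer and 25.6, 34.4 and 24.0 in control bone. As deposited, the adipocyte, erythroid and B cell sums did not overlap between the groups, all higher after transfer. The osteoclast, osteocyte and osteoblast, neutrophil and skeletal muscle sums overlapped. These marker sums were not recomputed with the Gm10800-type genes left out of the total. With the deposited scaling 1 adipocyte gene, Cfd, rose, by 3.61 on the log2 scale (limma adjusted p = 0.000256). Its call was lost without a filter on low values, with a replicate block, and with scaling by the median of ratios, by quantiles or to one total. It was also lost without transfer replicate 3, control replicate 2 or control replicate 3. The part of these markers in the members' values was not tested.

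Across the 12 libraries of the oligomycin A experiment the 10 genes were correlated with each other, after scaling by the median of ratios. All 45 pairs of members had a positive Pearson correlation of log2 values, with a median of 0.68, the highest for Atp5o and Atp5b at 0.96 and the lowest for Atp5d and Atp5c1 at 0.07; the points share their libraries and their scaling, and no p is given. No other pairs of genes were correlated, so these values do not set the 10 apart from other genes. Atp5g3 and Atp5b followed the mean profile of the 10 most closely, both at 0.94, and Atp5c1 least, at 0.44. That mean includes the gene itself, which raises each of these values. Genes with a mean of at least 10 FPKM and outside all lists examined here, 4330 in number, were ranked by correlation with that mean profile. The other ATP synthase subunits and the electron transport chain genes were thus not ranked. Of the ranked genes, the 5 most alike were Lgals1 (galectin-1) at 0.96, Ppib (cyclophilin B of the endoplasmic reticulum) at 0.95 and Mbd3 at 0.94, then Cyb5r3 (cytochrome b5 reductase) and Fis1 (an adaptor of mitochondrial fission) at 0.93 each.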

How the data were processed

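Libraries were made from poly(A)-selected RNA, per the labels' protocols. Expression came as FPKM in 4 tables deposited by the authors. The aligner and FPKM tool are not given in the sources used here; HTSeq and mm10 appear in the submitters' processing notes without a stated use. In the oligomycin A table, FPKM times the exon length of GENCODE M21 (GRCm38) came out whole within 0.05 of a common step for 98.6% of the 15146 genes examined. Lengths of all exons were therefore used, and were assumed for the other tables. Not analysed here were 21 of 48 samples, in 7 of 16 groups.

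Because FPKM are not counts, limma 3.58.1 (R 4.3.3) was run on log2(FPKM + 1), although the design had also allowed for counts. Genes needed a mean of 1 FPKM or more over the fitted libraries, and the variance prior followed a trend. The added 1 makes fold changes of low genes appear smaller. Each table was fitted alone, the 4 oligomycin A groups in 1 fit, and a Benjamini-Hochberg adjusted p below 0.05 over all genes was the threshold. Shares and ratios were compared by exact permutation of libraries. Shared 50-base stretches and promoter motifs were searched with Python 3.11.15. All members are named, with the called genes of each list and the 5 genes outside the lists most correlated with the members. Other genes were named after their values were seen. The members and lists were chosen with earlier results of these data known. Fits were tested on simulated data with changes of 1 log2 unit put in. The young bone fit recovered none of these changes, and the other fits recovered most. The fitted differences of the members were smaller than 1 log2 unit in every comparison, and recovery of changes of their size was not tested. Alternatives covered pseudocounts, filters, scalings, priors, replicate blocks and single libraries left out.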

Additional observations from a re-analysis of the deposited data

How the results depend on the processing

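Of the 10 ATP synthase genes, 1 was called in oligomycin A against vehicle cells. The count was 0 without a filter on low values and 0 with libraries rescaled to one total, 3 with median-of-ratios scaling (Atp5d, Atp5g2 and Atp5o), 4 with quantile normalization (these and Atp5b), and between 0 and 2 when 1 library was left out. It stayed at 1 with a pseudocount of 0.1, a constant variance prior or only the 6 libraries compared. Libraries rescaled to one total reversed Atp5a1 to 0.10, Atp5b to 0.051 and Atp5c1 to 0.082. The median of the 10 genes was then -0.069, in place of -0.21, and that of all genes 0.12. In that scaling vehicle replicate 2 was divided by the highest total of the first table, 352370 FPKM. In the other 5 comparisons 0 of the 10 genes were called under every alternative run. Same-numbered libraries were not paired by the labels, and their deviations correlated at -0.08, 0.01 and -0.04 for oligomycin A and vehicle; with a replicate block, 1 gene was called there.

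Among all genes, the 442 higher and 194 lower calls for oligomycin A became 199 to 326 and 57 to 366 without 1 library, and 256 to 761 and 19 to 522 under the other settings. For recipients, 33 and 13 became 2 to 53 and 4 to 32, for the difference of responses 10 and 43 became 5 to 22 and 26 to 80, and for vehicle supernatant 1129 and 617 became 484 to 1179 and 102 to 1088. For ADP, 6 and 1 became 0 to 36 and 0 to 4, and for young bone 2 and 2 became 0 to 6 and 0 to 3. The members' median in young bone, 0.70, was 0.07 to 1.27 without 1 library and 0.04 with quantile normalization. The median for vehicle supernatant, -0.03, was 0.09 with one total. The cause was not tested. Of the 5 genes outside the lists most like the members, 3 were shared as deposited and without vehicle replicate 2. By a rough estimate, depth was lowest in young bone, with 1.61 to 6.4 M fragments.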
